A study of Drosophila melanogaster with 16 samples.

Results

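The 8 genes described here encode eggshell proteins, yolk proteins and the receptor that brings yolk into the oocyte: dec-1, Fcp3C, Vml, ndl, yl, Yp1, Yp2 and Yp3. They were chosen by name, without use of their values, from the 16727 genes measured in the developing Drosophila melanogaster ovary and the fat body around it. The data are RNA-seq libraries of female larvae at the passage from the last larval stage to the prepupa, raised at 25 °C, with 4 libraries in each of 4 groups. The tissue was larval fat body alone or larval fat body dissected with the ovaries in it. The animals were heterozygotes with the dLmx1a delta1 allele opposite the balancer chromosome TM3-GFP, or were labelled homozygous for the knock-out. The labels do not say whether replicates came from separate animals, so p-values measure only the spread between these libraries, which may be technical. Every animal came from the same balanced knock-out stock, and only the heterozygotes carried TM3-GFP. Genotype was read from the presence or absence of that balancer, so the effects of the balancer and of the delta1 allele cannot be told apart.

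The fly eggshell is laid down late in oogenesis by the follicle cells around each oocyte. They first secrete the vitelline membrane and then the layered chorion. Yolk proteins, in Drosophila relatives of lipases, are made by the adult female fat body and by follicle cells, travel through the haemolymph, and enter the oocyte through an endocytic receptor of the low density lipoprotein receptor family. Larval ovaries hold no follicles and no vitellogenic oocytes, so the libraries describe these genes well before their main period of use.

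Of the 8 genes, 7 lie on the X chromosome and 1, ndl, lies on arm 3L, part of the chromosome that also carries dLmx1a and that TM3 balances. Positions are given on BDGP6, the assembly called dm6, with the strand. The gene dec-1, annotated as dec, encodes secreted follicle cell proteins that are cleaved during eggshell assembly. It lies at chrX:7867161-7873222 on the minus strand. Fcp3C, a gene known as a follicle cell protein gene, lies at chrX:3173376-3174474 on the minus strand. Vml, the vitelline membrane-like gene, lies at chrX:2275822-2277781 on the plus strand. ndl, called nudel, encodes a large secreted protease needed for eggshell integrity and for the dorsoventral axis, and lies at chr3L:6593938-6603366 on the minus strand. yl, called yolkless, encodes the yolk protein receptor of the oocyte and lies at chrX:14193214-14199958 on the plus strand. Yp1 at chrX:10053811-10055498 on the plus strand and Yp2 at chrX:10050951-10052636 on the minus strand are divergent neighbours, and 1174 bases lie between them. Yp3 lies apart from them at chrX:13759546-13761547 on the plus strand. The span of dec-1 overlaps the antisense gene CR43615, whose group means were 0 to 1.05 normalised counts. No source used here gives the strand setting of the counting, so reads of such partners cannot be told apart.

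The libraries held 19022106 to 32755588 reads counted on genes. The values below are the deposited normalised counts, which are reads per gene divided by the size factor of the library. The targeted gene, listed as CG32105, had 518 to 723 normalised counts in the heterozygous libraries with ovaries and 564 to 742 in those labelled homozygous, against 0 to 23.5 and 0 to 4.59 in fat body alone. Reads over the whole gene does not show which part an allele removes. The white gene w, an eye colour gene often used as a transgene marker, was at 41.5 to 202 in the heterozygous libraries and at 0 to 3.06 in those labelled homozygous. Fat body markers, 6 storage and fat body protein genes, summed to 14794400 to 18004000 normalised counts in fat body alone. With ovaries they summed to 10470300 to 12678100, lower without overlap. Summed germline and ovarian somatic markers were higher in the groups dissected with ovaries. Germline sums were 2107 to 3064 there and 26.3 to 206 in fat body alone, and ovarian somatic sums were 4820 to 7048 and 1871 to 3165. Not every ovarian somatic gene followed its sum. Means of eya with ovaries were 126 against 170 without in heterozygotes and 119 against 166 labelled homozygous. For cas they were 3.89 against 5.14 and 3.49 against 14.2.

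The genes showed different patterns. dec-1 and yl were read almost entirely in the libraries with ovaries, and ndl at lower levels in the same way. Fcp3C, Yp2 and Yp3 were read in fat body with and without ovaries and were not called by tissue. Yp1 and Vml were close to absent, with 29 and 3 reads over all 16 libraries. Per kilobase of exon, Yp3 had the highest mean of the 8 genes in every group, although its libraries overlapped those of dec-1 in the group labelled homozygous with ovaries. Yp3 and Fcp3C were lower in the libraries labelled homozygous, with calls that depended on how the replicates were modelled.

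**Figure D1:**
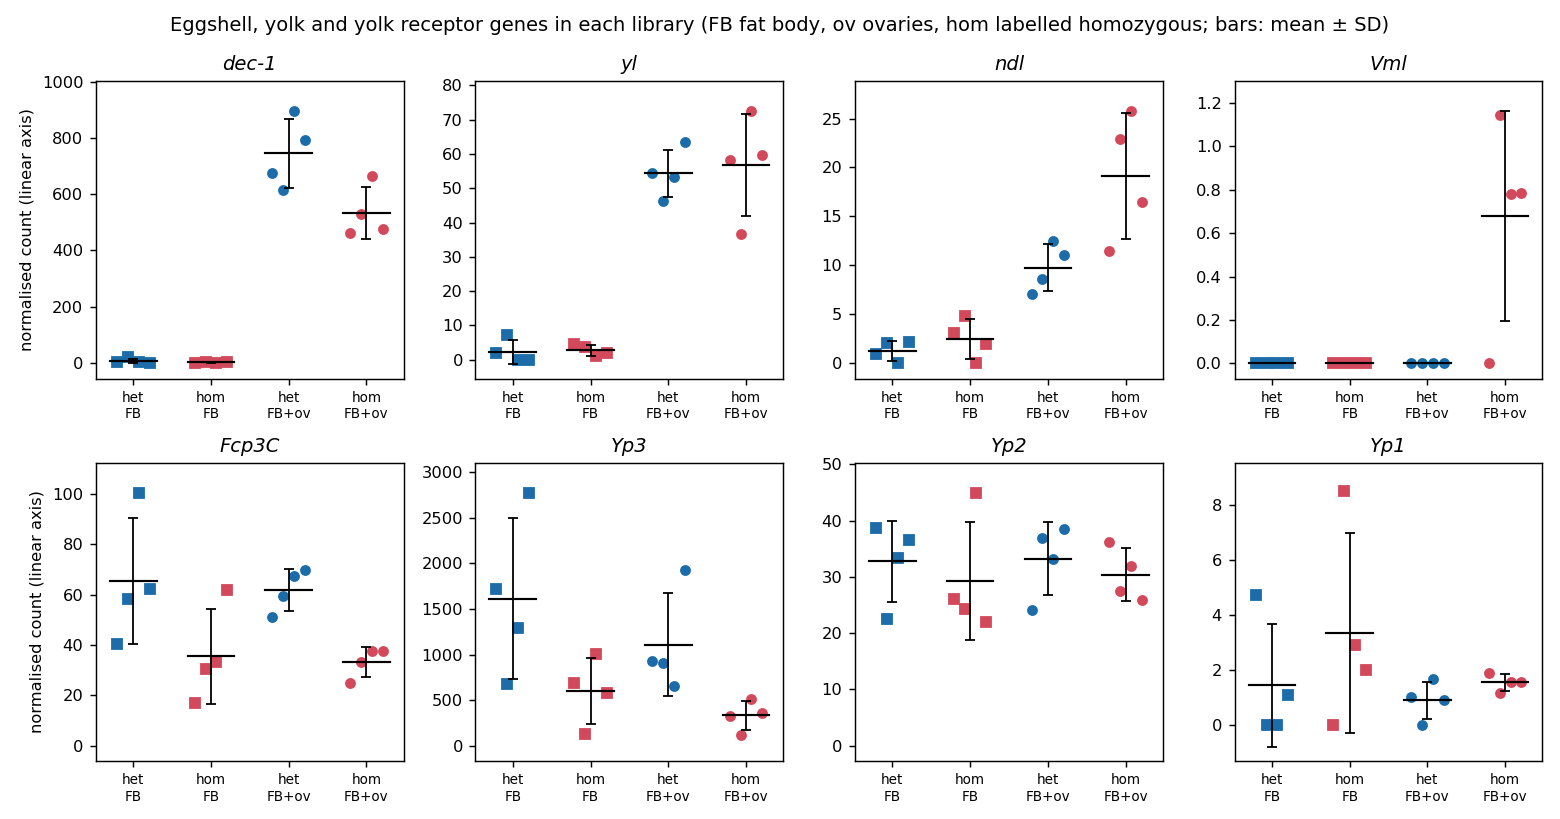
Normalised counts (linear axis, a scale for each gene) of the 8 genes in the 16 libraries, with squares for fat body alone and circles for fat body with ovaries, blue for heterozygous and red for labelled homozygous libraries. Horizontal bars are the mean of 4 libraries and vertical bars the SD. dec-1, yl and ndl separate by tissue, Fcp3C and Yp3 are lower in the red groups, and Yp2 is at about 30 in all 4 groups.

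The first question was which of these genes were read from the ovary, by comparing fat body with ovaries against fat body alone within each genotype. In heterozygotes dec-1 had 678, 617, 897 and 793 normalised counts with ovaries and 2.83, 18.4, 1.11 and 0 in fat body alone, where the count of 0 allows up to 3.22. In the libraries labelled homozygous it had 461, 530, 666 and 478 with ovaries and 0, 2.43, 0 and 0.998 without, where the counts of 0 allow up to 4.59 and 2.92. All 8 libraries with ovaries were above all 8 without. The group means were 746 ± 124 and 534 ± 92.9 (SD, n = 4) with ovaries. dec-1 rose by 7.71 ± 0.66 (SE) on the log2(count + 1) scale in heterozygotes (limma, adjusted p = 7.03e-07) and by 8.35 ± 0.66 in the libraries labelled homozygous (limma, adjusted p = 2.15e-07). Fat body labelled homozygous held 3 reads of dec-1 in all, against 2410 with ovaries, a pooled ratio of 629 with an exact counting interval of 215 to 3051. In these bulk samples, more cells of a type and more RNA per cell cannot be told apart.

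The receptor gene yl was at 54.3, 46.4, 53.1 and 63.4 normalised counts in heterozygous libraries with ovaries and at 1.89, 7.16, 0 and 0 without. Labelled homozygous libraries had 58.1, 36.7, 72.5 and 59.6 with ovaries and at 4.59, 3.64, 0.974 and 1.996 without. The groups with and without ovaries did not overlap in either genotype, as for 19.8% and 17.6% of all genes tested, which were higher with ovaries without overlap. yl rose by 4.64 ± 0.56 (SE, log2) in heterozygotes (limma, adjusted p = 1.52e-05) and by 3.995 ± 0.56 in the libraries labelled homozygous (limma, adjusted p = 5.99e-05). Without heterozygous fat body replicate 2 the differences in heterozygotes were 8.52 for dec-1 and 5.27 for yl, and without replicate 4 they were 7.10 and 4.26. With fat body near 0 reads, the size of these folds depends on the count added before the logarithm. With 8 in place of 1 they were 5.96 and 5.93 for dec-1 and 2.65 and 2.56 for yl in heterozygotes and in those labelled homozygous, all still called. The mean of yl with ovaries was 54.3 ± 6.97 in heterozygotes and 56.7 ± 14.9 in those labelled homozygous (SD, n = 4).

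Of the 8 genes, 5 passed the filter on low values, a mean of at least 10 normalised counts, and 2 of the 5, dec-1 and yl, were called higher with ovaries in each genotype. Both passed that filter only through the groups with ovaries, so the count partly follows from the filter. Over all 7824 genes tested, 29.3% were called in either direction in heterozygotes, with 18.6% higher and 10.7% lower, while 33.0% were called in those labelled homozygous, with 19.8% higher and 13.2% lower. The split of calls depends on scaling. Of 2295 genes called in heterozygotes 1458 were higher and 837 lower, and with every library scaled to the same total 3457 were higher and 63 lower. For the libraries labelled homozygous the split was 1547 to 1032, and 3667 to 38 at equal totals. Equal totals put the median of all genes at 0.34 and 0.37 (log2), and dec-1 and yl were called higher under it too.

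The protease gene ndl was below the filter and was tested alone. It had 7.04, 8.59, 12.5 and 11.02 normalised counts in heterozygous libraries with ovaries and 0.943, 2.05, 0 and 2.15 without. In the libraries labelled homozygous it had 11.4, 22.9, 25.7 and 16.5 with ovaries and 3.06, 4.85, 0 and 1.996 without. Libraries with ovaries were above those without in both genotypes. The means differed 7.61-fold in heterozygotes (exact two-sided permutation p = 0.0286) and 7.73-fold in the libraries labelled homozygous (exact two-sided permutation p = 0.0286). These p-values are unadjusted, and 0.0286 is the smallest that 4 libraries against 4 allow. Between the 2 genotypes with ovaries the ndl means were 9.78 ± 2.42 and 19.1 ± 6.43 (SD, n = 4). Those groups overlapped, and the difference missed the threshold (exact two-sided permutation p = 0.0571), while all 4 pairs of equal replicate number were higher in the library labelled homozygous, by 1.495-fold to 2.67-fold. The 3′ end of ndl overlaps the end of the neighbouring gene MCU, listed as CG18769, by a few bases, and that gene had group means of 119 to 144 normalised counts.

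Vml had no read in 13 of the 16 libraries. Its 3 reads fell in 3 of the 4 libraries labelled homozygous with ovaries, at 1.15, 0.780 and 0.785 normalised counts, which is 1 read each. The difference from heterozygotes missed the threshold (exact two-sided permutation p = 0.143), and values of 1 read set no level.

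Fcp3C did not follow the ovary. It had 40.6, 58.3, 100 and 62.3 normalised counts in heterozygous fat body and 51.3, 59.3, 67.3 and 69.8 with ovaries. Levels labelled homozygous were 16.8, 30.3, 33.1 and 61.9 in fat body and 24.8, 33.2, 37.4 and 37.7 with ovaries. The tissues overlapped in both genotypes, and in each genotype the lowest library with ovaries and the lowest without were both replicate 1. The log2 difference by tissue was -0.01 ± 0.33 (SE; limma, adjusted p = 0.979) in heterozygotes, and labelled homozygous it was 0.03 ± 0.33 (limma, adjusted p = 0.947). At equal totals these differences were 0.37 and 0.45 (limma, adjusted p = 0.382 and 0.278).

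Of the 3 yolk protein genes, Yp3 carried most of the reads. It had 1720, 678, 1293 and 2768 normalised counts in heterozygous fat body and 929, 911, 658 and 1931 with ovaries. In the libraries labelled homozygous it had 690, 131, 1008 and 579 in fat body and 330, 120, 512 and 361 with ovaries. Replicate 2 was the lowest library in 3 of these 4 groups. Tissues overlapped in both genotypes, with log2 differences of -0.49 ± 0.61 (SE; limma, adjusted p = 0.572) and -0.71 ± 0.61 (limma, adjusted p = 0.394). At equal totals these differences were -0.10 and -0.28. Labelled homozygous, the library with ovaries was lower in all 4 pairs of equal number, at 0.478 to 0.918 of the level without, and with the replicate block the adjusted p was 0.175. Without fat body replicate 2 of that genotype the difference was -1.33 (limma, adjusted p = 0.0705), and without its replicate 2 with ovaries it was -0.28.

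Yp2 was steady in all 4 groups, with means of 32.8 ± 7.18 in heterozygous fat body, 33.2 ± 6.46 with ovaries, 29.3 ± 10.5 in fat body labelled homozygous and 30.4 ± 4.66 with ovaries (SD, n = 4). Its log2 difference by tissue was 0.02 ± 0.24 (SE; limma, adjusted p = 0.947) in heterozygotes and 0.10 ± 0.24 (limma, adjusted p = 0.782) in the libraries labelled homozygous. At equal totals the differences were 0.40 and 0.51 (limma, adjusted p = 0.187 and 0.0909), beside medians of 0.34 and 0.37 over all genes. The steadiness of Yp2 by tissue therefore depends on scaling. Yp1, the divergent neighbour of Yp2, was at 0 to 8.496 normalised counts. It had 4.72, 0, 0 and 1.07 in heterozygous fat body, 1.01, 0, 1.66 and 0.918 with ovaries, 0, 8.496, 2.92 and 1.996 in fat body labelled homozygous and 1.91, 1.15, 1.56 and 1.57 with ovaries. Its groups overlapped in every comparison by tissue or genotype. Yp3 made up 94.97% to 98.7% of the yolk protein reads in heterozygous libraries. Its share in those labelled homozygous was 80.0% (95% Wilson interval 72.5% to 85.9%, fat body replicate 2) to 96.4%. The yolk protein genes are related in sequence and no source used here says how multiply mapped reads were treated, so their split is uncertain.

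Levels were compared between genes as normalised counts per kilobase of exon. In heterozygous fat body Yp3 was at 865 per kilobase, followed by Fcp3C at 67.9 and Yp2 at 20.3. Each was separated from the next without overlap of libraries, and the other 5 genes were below 1 and overlapped one another. With ovaries the order in heterozygotes was Yp3 at 593, dec-1 at 130, Fcp3C at 64.3, Yp2 at 20.5 and yl at 8.55 per kilobase. Libraries of neighbours in that order did not overlap, whereas ndl at 1.19 overlapped Yp1 at 0.556. With ovaries in the libraries labelled homozygous, Yp3 at 177 per kilobase overlapped dec-1 at 92.9, and Fcp3C, Yp2 and yl followed at 34.6, 18.8 and 8.93. In fat body labelled homozygous Yp3 was at 322, and Fcp3C at 36.9 overlapped Yp2 at 18.1.

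The other question was whether these genes differed by genotype. By the test without a replicate term 0 of the 5 genes was called with ovaries, where 2.11% of all genes tested were called, and 0 of 5 in fat body alone, where 5.39% were. At an unadjusted p under 0.05, Fcp3C and Yp3 were below the threshold in both tissues, as were 13.5% of all genes with ovaries and 19.3% in fat body. edgeR called 0 of 5 in each tissue, where it called 1.98% and 4.56% of all genes. DESeq2 called 1 of 5 with ovaries, Yp3 at an adjusted p of 0.0373, and 0 of 5 in fat body alone, where it called 5.32% and 9.53% of all genes. The median log2 fold of the 5 genes was -0.48 with ovaries and -0.93 in fat body, beside -0.0026 and -0.0022 over all genes. The fat body median rests partly on dec-1, at -1.13 on 22 heterozygous and 3 labelled homozygous reads. Without heterozygous fat body replicate 2 dec-1 was at -0.31. Yp2 and yl were at -0.19 and 0.68 in fat body, so the median does not describe a drop shared by the 5 genes.

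Yp3 was lower by genotype in both tissues. Its mean with ovaries was 1108 ± 563 in heterozygotes against 331 ± 161 in the libraries labelled homozygous (SD, n = 4), and the groups did not overlap. The log2 difference was -1.80 ± 0.61 (SE; limma, adjusted p = 0.174), and it passed with the replicate number as a block (limma, adjusted p = 0.0209). In fat body alone the means were 1615 ± 880 and 602 ± 363 (SD, n = 4), and the groups overlapped. There the log2 difference was -1.57 ± 0.61 (SE; limma, adjusted p = 0.162), and with the block the adjusted p was 0.0246.

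The heterozygous library exceeded its partner of the same number in all 4 pairs of each tissue, by amounts that differed widely between numbers. For replicates 1, 2, 3 and 4 the level of Yp3 labelled homozygous was 0.355, 0.132, 0.778 and 0.187 of the heterozygous level with ovaries. In fat body it was 0.401, 0.193, 0.779 and 0.209 of it. Replicate 3 had the smallest difference and replicate 2 the largest in both tissues.

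Fcp3C with ovaries had a mean of 61.9 ± 8.37 in heterozygotes against 33.3 ± 6.02 labelled homozygous (SD, n = 4), again with no overlap. The log2 difference was -0.88 ± 0.33 (SE; limma, adjusted p = 0.219), and with the block the adjusted p was 0.0342. In fat body the means were 65.4 ± 25.1 and 35.5 ± 19.0 (SD, n = 4) and the groups overlapped. The log2 difference there was -0.93 ± 0.33 (SE; limma, adjusted p = 0.119), and with the block the adjusted p was 0.0185. Fat body labelled homozygous replicate 4, at 61.9, was level with its heterozygous partner at 62.3, and without that library Fcp3C passed without the block too (limma, adjusted p = 0.0249). In the pairs with ovaries the heterozygous library was higher by 1.78-fold to 2.07-fold.

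Thus Yp3 and Fcp3C, 2 of the 5 genes tested, were lower without overlap in the libraries labelled homozygous with ovaries, where 6.20% of all genes tested were. In fat body 0 of 5 were, beside 4.78% of all genes. With the replicate block, the same 2 genes were called in each tissue, where 8.44% of all genes were called with ovaries and 15.1% in fat body. The comparisons with ovaries and in fat body share no libraries, while each shares libraries with the comparisons by tissue. Both hold fat body, and deviations of equal-numbered libraries correlated between tissues, at 0.198 to 0.61 labelled homozygous and 0.0151 to 0.284 in heterozygotes. The results of the 2 tissues therefore cannot be counted as independent.

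**Figure D2:**
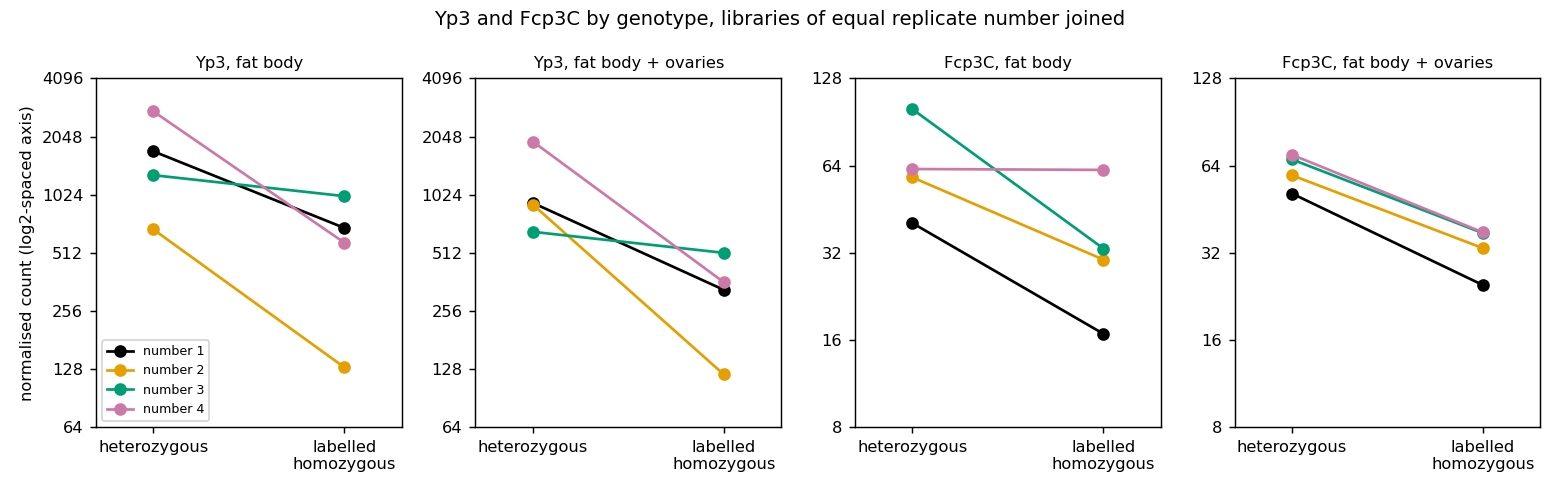
Normalised counts (log2-spaced axis) of Yp3 and Fcp3C by genotype in each tissue, with the libraries of equal replicate number joined by a line. Yp3 declines from left to right for all 4 numbers in both tissues, least for number 3, and Fcp3C with ovaries declines by a like step for all 4 numbers.

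dec-1, yl and Yp2 were not called by genotype. dec-1 with ovaries was lower in the libraries labelled homozygous in all 4 pairs of equal number, at 0.603 to 0.860 of the heterozygous level. The groups overlapped, and the log2 difference was -0.48 ± 0.66 (SE, 95% interval -1.90 to 0.93; limma, adjusted p = 0.844). That SE rests on all 16 libraries, which include fat body near 0 reads. Fitted on the 8 libraries with ovaries alone, the SE of dec-1 was 0.15 and its 95% interval -0.82 to -0.14 (limma, adjusted p = 0.136). yl with ovaries differed by 0.03 ± 0.56 (SE, log2; limma, adjusted p = 0.994), and Yp2 by -0.11 ± 0.24 (95% interval -0.63 to 0.40; limma, adjusted p = 0.915). On those 8 libraries alone the SE of yl was 0.21 (limma, adjusted p = 0.962). In fat body alone the log2 differences were -1.13 ± 0.66 (SE) for dec-1 (limma, adjusted p = 0.383), 0.68 ± 0.56 for yl (limma, adjusted p = 0.550) and -0.19 ± 0.24 for Yp2 (limma, adjusted p = 0.723). The dec-1 value in fat body rests on heterozygous replicate 2, and without that library it was -0.31.

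The difference between the tissues in the effect of genotype was tested as an interaction. By limma 0 of the 5 genes was called, where 0.0511% of all genes tested were, and every adjusted p was 0.99995. At an unadjusted p under 0.05 limma counted 0 of the 5, beside 2.33% of all genes. At an adjusted p under 0.05 edgeR and DESeq2 called 0 of 5, beside 0.0511% and 0.256% of all genes. DESeq2 gave dec-1 an unadjusted p of 0.0433.

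**Figure D3:**
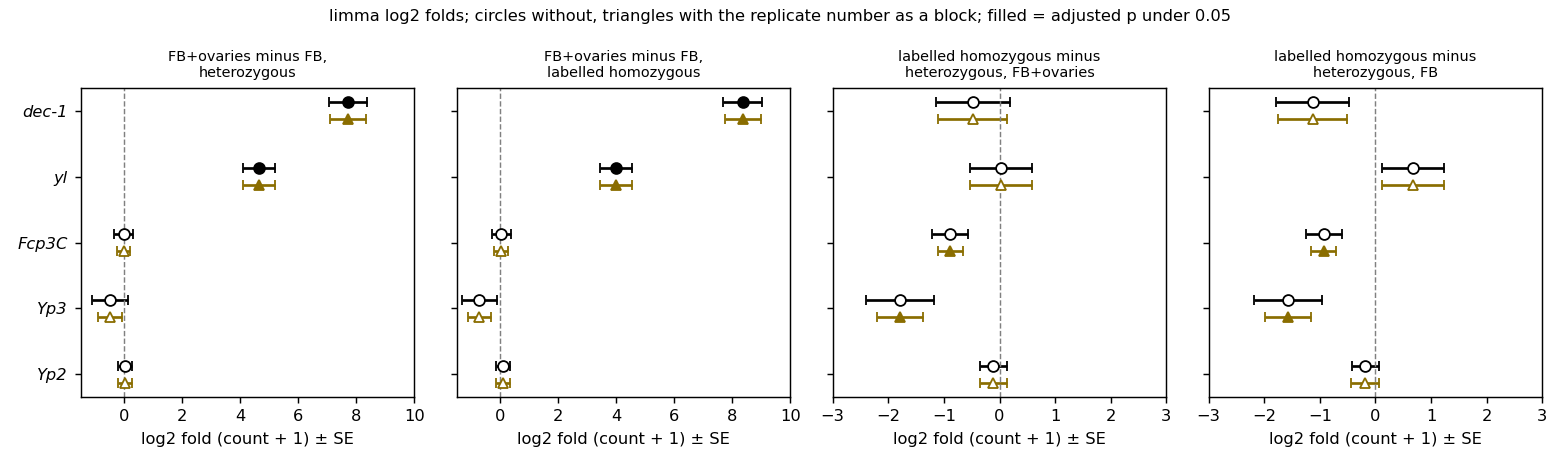
Log2 folds with SE (horizontal axes, on the count + 1 scale) of the 5 genes tested, in the comparisons by tissue and by genotype, with circles for limma without and triangles for limma with the replicate number as a block. Filled symbols passed an adjusted p of 0.05: dec-1 and yl by tissue under both fits, and Fcp3C and Yp3 by genotype with the block.

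Single marker genes of the ovary and of other tissues also differed by genotype. Of 11 ovarian somatic genes tested, 1 was called higher and 1 lower with ovaries, where 2.11% of all genes were called. These were Fas3, at 1.60 ± 0.36 (SE, log2; limma, adjusted p = 0.0384), and hh, at -1.72 ± 0.36 (limma, adjusted p = 0.0234). Of the 6 muscle markers, Mlc2, a myosin light chain gene, was at 352 to 431 normalised counts in heterozygous libraries with ovaries and at 11.5 to 48.6 in those labelled homozygous. Its log2 difference was -4.06 ± 0.49 (SE; limma, adjusted p = 0.000323), and it was the only 1 of the 5 muscle genes tested that was called, in either tissue. The other 5 muscle markers summed to 37.7 to 94.5 and 37.4 to 87.7 with ovaries. In fat body those sums were 66.0 to 129 in heterozygous and 53.6 to 448 in labelled homozygous libraries. Of the 7 testis markers, Mst87F was at 136 to 582 in heterozygous and 33.7 to 141 in labelled homozygous fat body, with a log2 difference of -2.16 ± 0.52 (SE; limma, adjusted p = 0.0282). bol went the other way there, at 1.60 ± 0.30 (SE; limma, adjusted p = 0.00743), and the 6 testis markers without Mst87F summed to 67.7 to 189 and 116 to 197. Mst84Da was at 0 in every group. The 6 salivary glue markers summed to 7.47 to 103 in heterozygous libraries with ovaries. Labelled homozygous replicate 2, which had the lowest Yp3 of its group, was at 3347 and the other 3 were at 13.3 to 137. In heterozygous fat body the library with the highest glue sum, 78.8, also had the lowest Yp3. In fat body labelled homozygous the library with the highest sum, 160, had the highest Yp3. Heterozygous replicate 1 with ovaries, at 103, had neither. The part of the marker genes in the Yp3 and Fcp3C differences was not tested. The fat body markers were not lower in the libraries labelled homozygous, with sums of 16956000 to 18004000 in fat body against 14794400 to 15983100 in heterozygotes. Hemocyte markers, 5 genes, summed to 232 to 694 and 282 to 740 in heterozygous and labelled homozygous fat body.

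Most eggshell genes used later in oogenesis were near 0. The 9 chorion genes of the Cp group, which are amplified and expressed in adult follicle cells, had between 0 and 109 reads over the 16 libraries, and none passed the filter. Cp36, with 109 reads, had its highest mean, 10.1, in heterozygous libraries with ovaries. Cp7Fa, with 102 reads, had its highest mean, 10.4, in fat body labelled homozygous. The 5 Vm genes, major vitelline membrane proteins, had between 0 and 5 reads. Of 15 listed chorion genes 1 passed the filter: Pxt, an eggshell peroxidase, had means of 3.61 ± 3.05 in heterozygous fat body and 123 ± 33.3 with ovaries (SD, n = 4). Pxt rose by 4.89 ± 0.34 (SE, log2; limma, adjusted p = 1.28e-07) in heterozygotes and by 5.71 ± 0.34 (limma, adjusted p = 3.52e-08) in the libraries labelled homozygous.

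Of 9 listed vitelline membrane genes 3 passed the filter, and 2 rose with ovaries in each genotype. These 2, like Pxt, passed it only through the groups with ovaries, so their count partly follows from the filter. fs(1)N, an eggshell protein gene of the terminal group, went from 2.09 ± 0.910 to 25.0 ± 7.07 normalised counts in heterozygotes (SD, n = 4). It rose by 3.07 ± 0.37 (SE, log2; limma, adjusted p = 1.50e-05). fs(1)M3, likewise an eggshell protein gene, went from 3.07 ± 1.64 to 44.1 ± 3.33 and rose by 3.57 ± 0.36 (limma, adjusted p = 2.49e-06). Both also rose in the libraries labelled homozygous, by 3.11 and 2.60. The third, clos, was at 0.16 on the log2 scale in both genotypes and was not called. Among the eggshell genes tested, ndl, dec-1, Pxt, fs(1)N and fs(1)M3 were thus read more with ovaries, and Fcp3C and clos were not called. The listed chorion and vitelline membrane genes under the filter have no test by tissue here.

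**Figure D4:**
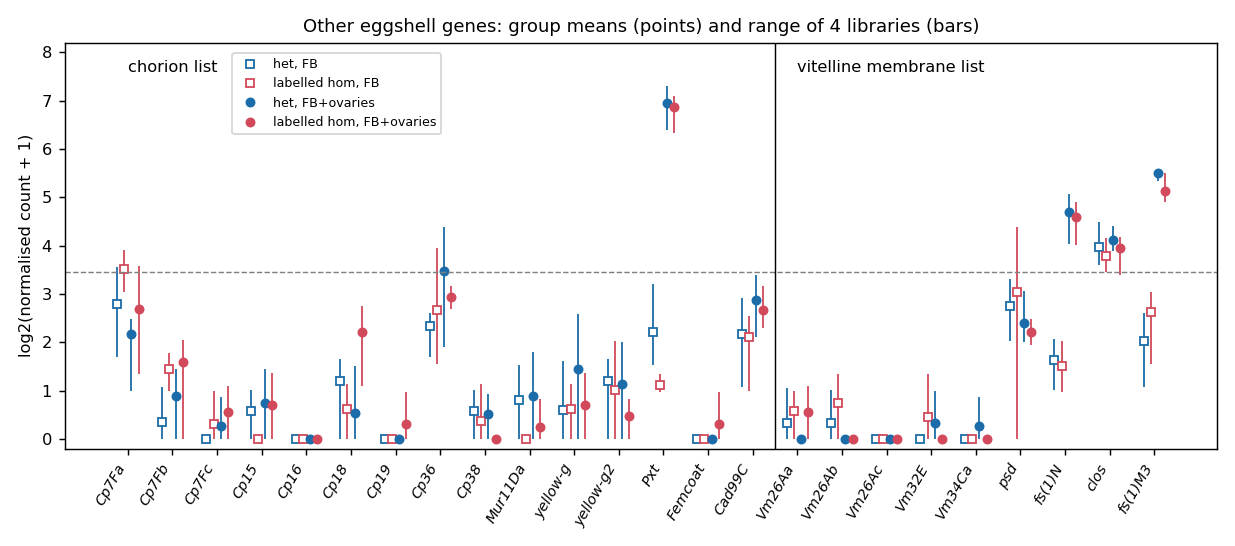
Group means of log2(normalised count + 1) for the 15 listed chorion and 9 listed vitelline membrane genes, with vertical bars from the lowest to the highest of 4 libraries, and the dashed line at the filter, a count of 10. Pxt, fs(1)N and fs(1)M3 stand above the line with ovaries and below it without, and most Cp and Vm genes are near 0 in all groups.

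Genes that work with yl in uptake, other lipoprotein receptors, and lipoprotein and lipid transfer genes were listed together, and all passed the filter. The counts and medians below are therefore not of uptake genes alone. Of 16 listed, 3 rose with ovaries in each genotype and 5 and 8 fell, with median log2 folds of -0.27 and -0.32 beside -0.05 over all genes. Over all genes 18.6% and 19.8% were called higher and 10.7% and 13.2% lower. Of those that rose, mgl, a megalin-like receptor of the same family as yl, went from 21.6 ± 5.83 to 84.2 ± 19.5 normalised counts in heterozygotes (SD, n = 4), by 1.92 ± 0.25 on the log2 scale (SE; limma, adjusted p = 2.78e-05). LpR2, a lipophorin receptor gene, rose by 1.62 ± 0.46 in heterozygotes (limma, adjusted p = 0.0159) and by 2.88 ± 0.46 in the libraries labelled homozygous (limma, adjusted p = 0.000196). LpR1, the other lipophorin receptor gene, named after its values were seen, rose by 2.16 and 1.48. Its fat body counts were low, at 4.46 to 18.9 in heterozygous and 3.64 to 24.5 in labelled homozygous libraries. At equal totals the 3 receptors still rose in each genotype and 0 of the 16 fell, so the direction of the others depends on scaling. Among those was the lipid transfer gene Mtp, at -0.42 ± 0.09 and -0.55 ± 0.09 (SE, log2), which was at -0.03 and -0.12 at equal totals.

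The regulators of yolk protein genes were also read in all groups. dsx, the sex determination factor that acts on the Yp1 and Yp2 enhancer, rose with ovaries by 0.77 ± 0.16 (SE, log2; limma, adjusted p = 0.00242) and 0.63 ± 0.16 (limma, adjusted p = 0.00836). srp, a GATA factor of the fat body, was at -0.46 ± 0.11 (limma, adjusted p = 0.00555) and -0.73 ± 0.11 (limma, adjusted p = 0.000120). Of the 16 listed, 2 rose and 3 fell in heterozygotes, and 1 rose and 3 fell in the libraries labelled homozygous, beside 18.6% higher and 10.7% lower, and 19.8% higher and 13.2% lower, over all genes. At equal totals 5 rose and 1 fell, and 4 rose and 1 fell. By genotype, Aef1, a zinc finger repressor of fat body enhancers, was higher in fat body labelled homozygous by 0.60 ± 0.14 (SE; limma, adjusted p = 0.0244), and it missed the threshold at equal totals (limma, adjusted p = 0.0648). LpR2 was lower there by genotype, at -1.66 ± 0.46 (SE; limma, adjusted p = 0.0495).

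Among the dorsal and terminal group genes, which like ndl act in axis formation, those that passed the filter moved little. Of 14 listed 7 passed the filter. With ovaries 0 of these 7 rose and 3 fell in heterozygotes, and 0 rose and 4 fell in the libraries labelled homozygous. Among all genes tested 18.6% and 19.8% were called higher and 10.7% and 13.2% lower. The receptor gene Tl was at -0.51 ± 0.13 and -0.52 ± 0.13 (SE, log2; limma, adjusted p = 0.0105 and 0.00823). At equal totals Tl was at -0.12 and -0.09, and 0 of the 7 were called. Below the filter and not tested, tor had means of 1.49 in heterozygous fat body and 14.6 with ovaries, and 0.632 and 14.4 labelled homozygous. Likewise ea went from 0.727 to 12.15 and from 0.382 to 2.66, and gd from 0.236 to 4.35 and from 0.547 to 5.09. Means of pip in heterozygotes, 1.85 to 1.18, and of wbl labelled homozygous, 7.64 to 1.68, went the other way.

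The genes whose profile over the 16 libraries was nearest to each of the 5 genes were found by the root mean square difference of centred log2 values. For dec-1 they were CG9925, bab2 and Wnt4, at 0.67, 0.72 and 0.73 log2 units, the last a Wnt ligand gene of ovarian somatic cells. For yl they were BubR1, a spindle checkpoint kinase, ovo, a germline transcription factor, and Swim, at 0.32, 0.35 and 0.43. For Yp2 they were CG11982, PGAP5 and mRpL36, each at 0.24, which is nearness among flat profiles.

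For Fcp3C, near genes were Capr, a caprin RNA-binding protein, and CG3448, at 0.30 and 0.33 log2 units. Capr was lower in the libraries labelled homozygous, at -0.88 ± 0.17 (SE, log2) with ovaries and -1.06 ± 0.17 in fat body. CG3448 was at -0.61 ± 0.16 and -0.70 ± 0.16. For Yp3 the nearest were fry, CG33514 and CG34291, at 0.76, 0.76 and 0.77, farther than the nearest genes of the other members. fry, a large protein of cell morphogenesis, was at -1.31 ± 0.22 (SE, log2) by genotype with ovaries and -1.47 ± 0.22 in fat body. CG33514 was at -0.56 ± 0.47 and -0.71 ± 0.47, and CG34291 at -1.29 ± 0.54 and -0.30 ± 0.54. All these genes were picked for profiles like those of Fcp3C or Yp3 in these same libraries. Their differences by genotype partly follow from that choice and are no separate test.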

How the data were processed

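Total RNA of 16 libraries was sequenced. The submitters' processing notes name Trimmomatic 0.36, STAR 2.5.2b, featureCounts, Subread 1.5.0p3 and the build dm6. The deposited table holds the signal of each gene as counts divided by a DESeq2 size factor. All values above 0 (100%) were whole multiples of 1 read, within a tolerance of 1e-06, so the reads were recovered. In 2 libraries that value is too near 1 for an automatic test. Counts of 0 allow up to 3 reads, and limits and intervals cover counting error only. Groups follow the titles, because the genotype labels of the homozygous samples give a different allele number for each sample.

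Genes with a mean of at least 10 were kept (7824 of 16727), and log2(value + 1) was fitted with limma 3.58.1 in R 4.3.3 over all 16 libraries, with 1 mean per group, an intensity trend and Benjamini-Hochberg adjustment at 0.05, two-sided. ndl, Vml and Yp1, under the filter, had exact permutation tests. On recovered reads, edgeR 4.0.16 (quasi-likelihood, TMM) called 155 genes by genotype with ovaries and 357 in fat body, and DESeq2 1.42.0 called 416 and 746. Further alternatives were pseudocounts of 0.5 and 8, no filter or a filter of 50, equal totals, the 8 libraries compared, a replicate block, and leaving out libraries.

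The members were chosen by name, as stated above, and the 12 gene lists were chosen with earlier results of these data known. Named genes are the members, up to 3 called genes per list and comparison with the smallest p, not all of them printed, and the 3 nearest profiles of each kept member. For Fcp3C 1 of these is not reported here. Equal replicate numbers were checked by correlating deviations from group means across genes. The correlations were 0.173 to 0.417 between genotypes with ovaries, 0.213 to 0.676 between genotypes in fat body, 0.198 to 0.61 between tissues in the libraries labelled homozygous and 0.0151 to 0.284 in heterozygotes. The numbers therefore paired libraries by the data in all but the last, and the labels do not say what a number marks. Positions are from the Ensembl 115 annotation of BDGP6. No sequences are printed.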

Additional observations from a re-analysis of the deposited data

Results flagged for a closer look

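dec-1 in heterozygous fat body stood out for its highest library, replicate 2 at 18.4 normalised counts beside 2.83, 1.11 and 0 in the others. This was 1 of 29 groups examined, and chance alone marks about 1 in 20 groups. In that library dec-1 was at 2.47% of its mean level with ovaries, yl at 13.2%, the ovarian somatic genes Wnt4 and bab2 at 3.01% and 5.81%, and the summed germline markers at 7.59%, where the other heterozygous fat body libraries had germline sums of 2.12% to 2.42%. Without it and fat body labelled homozygous replicate 1, the log2 folds by tissue in heterozygotes were 8.52 for dec-1 and 5.27 for yl.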

How the results depend on the processing

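dec-1 and yl were called higher with ovaries in both genotypes under every alternative in which they were tested. At a filter of 50, which yl misses, 1 gene was called in each genotype, and with no filter 4 were called in the libraries labelled homozygous, with ndl at an adjusted p of 0.00123 and Vml at 0.0203 on its 3 reads. By genotype with ovaries, where 0 genes were called, the 8 libraries alone called 1 (Fcp3C), DESeq2 called 1 (Yp3) and the replicate block called 2. In fat body the replicate block called 2, and leaving out 1 library gave 0 to 1. The block moved the calls over all genes from 165 to 660 with ovaries and from 422 to 1178 in fat body, and changed no other call of the 5 genes. DESeq2 gave 416 and 746, the 8 libraries alone 76 in fat body, and leaving out 1 library 60 (without heterozygous replicate 3 with ovaries) to 264 (without fat body labelled homozygous replicate 1) with ovaries and 201 to 488 in fat body (without heterozygous replicates 4 and 1). At equal totals the split by genotype with ovaries went from 72 higher and 93 lower to 53 and 156, and in fat body from 179 and 243 to 71 and 427.

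Only folds that were not called changed sign. The dec-1 interaction was -0.028 at a pseudocount of 8, and Fcp3C by tissue in heterozygotes was 0.37 at equal totals. Fcp3C by tissue in the libraries labelled homozygous was -0.094 by edgeR and -0.12 by DESeq2, and its interaction was -0.018 and -0.045. yl by genotype with ovaries was -0.034 at equal totals. Without heterozygous fat body replicate 2 and labelled homozygous fat body replicate 1, these folds were -0.40 (dec-1 interaction), -0.27 and -0.22 (Fcp3C by tissue in the libraries labelled homozygous, and interaction), -0.14 (Yp2 by tissue in heterozygotes) and 0.31 (Yp3 interaction). Leaving out 1 library at a time gave -0.17 to 1.26 for the dec-1 interaction, -0.21 to 0.21, -0.27 to 0.34 and -0.25 to 0.35 for Fcp3C by tissue and interaction, -0.10 to 0.22 for yl by genotype with ovaries, -0.14 to 0.17, -0.017 to 0.32 and -0.069 to 0.29 for Yp2 by tissue and interaction, and -0.84 to 0.20 for the Yp3 interaction. The cause was not tested. Yp3 by genotype spanned -2.06 to -1.37 with ovaries and -1.93 to -0.95 in fat body when 1 library was left out. The interaction was not run on 8 libraries, since it needs all 16. Levels of a few reads, as for Yp1 and Vml, cannot show a difference at this depth.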
